A study of Mus musculus with 24 samples.

Results

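RNA-seq libraries made from punches of the mouse nucleus accumbens (NAc) differed widely in their content of Slc17a7, the vesicular glutamate transporter (VGLUT1) of cortical excitatory neurons. The 24 libraries were ranked by Slc17a7 in CPM (reads of a gene scaled to a fixed total of reads assigned to genes), and the 8 highest were set beside the 8 lowest, so 16 of 24 libraries were described. These are called Slc17a7-high and Slc17a7-low libraries, and Slc17a7 itself is left out of the results. All animals were mice aged 50 days, of strain C57BL/6 by the sample labels and C57BL/6J by the study's methods. Control (Con) mice had received no stress, while the other mice had been separated from mothers that were themselves stressed at unpredictable times (MSUS) on postnatal days 1 to 14, for 3 h per day by the study's methods and 2 h per day by the sample labels. With 6 libraries per group, each from the bilateral NAc of 1 animal, the title prefixes CONF and MSF stand for Con and MSUS females and CONM and MSM for Con and MSUS males. The NAc was taken with a 1.5 mm biopsy punch from frozen brain, so the edge of the tissue is set by where the punch falls.

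The NAc is the ventral part of the striatum. Its principal cells are GABAergic medium spiny neurons, which express either the dopamine receptor Drd1 or Drd2, together with Ppp1r1b (DARPP-32), and it holds few cell bodies of glutamatergic neurons. Excitatory neurons of the neighbouring cortex express Slc17a7 and transcription factors such as Neurod2, Neurod6 and Tbr1, and claustrum, septum and pallidum also lie close to the NAc. In bulk tissue, fewer cells of a type and less RNA per cell cannot be told apart.

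Slc17a7 ranged from 4.26 CPM in MSF5 to 1114 CPM in CONF3, a 261-fold range. The last library inside the high group, CONM1, had 299.9 CPM and the first outside it, CONM2, had 274.7 CPM, so that border falls in a continuous series. The last library inside the low group, MSM1, had 97.6 CPM and the first outside it, CONF4, had 109.9 CPM. The high group held 3 CONF, 2 CONM, 1 MSF and 2 MSM libraries and the low group held 0 CONF, 3 CONM, 3 MSF and 2 MSM libraries. Because no CONF library was low, fold changes fitted with the title prefix as a covariate rest on 13 libraries of 3 prefixes. Among the 7 females of the comparison, Slc17a7 and stress can barely be told apart, since all 3 low libraries were MSUS.

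**Figure D1:**
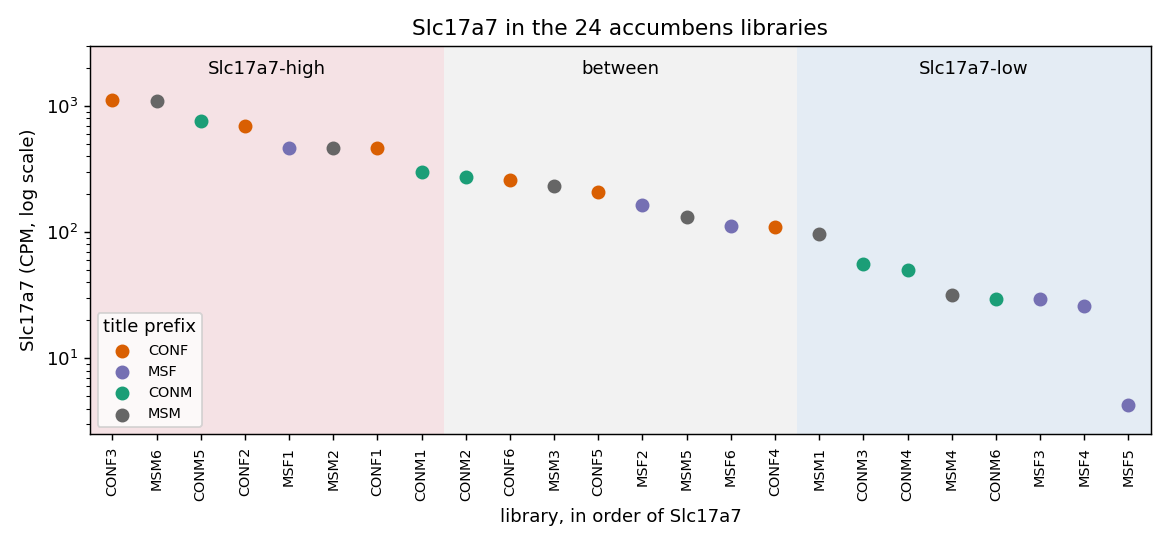
Slc17a7 in CPM (log scale) for each of the 24 libraries, in order of rank and coloured by title prefix, with the 8 high, 8 between and 8 low libraries shaded. The values fall from 1114 to 4.26 CPM with no wide gap at either border, and no CONF library lies among the 8 low.

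Total gene counts per library ranged from 39923666 to 70575745. The Slc17a7-high libraries averaged 5.668e+07 ± 6.923e+06 counts (SD, n = 8) and the low libraries 4.839e+07 ± 5.692e+06 (SD, n = 8; two-sided exact permutation p = 0.01445, adjusted p = 0.08252 over 6 technical measures). The percentage of uniquely mapped pairs assigned to no gene was 34.96 ± 3.588 in high and 39.34 ± 3.416 in low libraries (SD, n = 8 each; exact permutation p = 0.02751, adjusted p = 0.08252). Both adjusted p-values lay between 0.05 and 0.10. With the unassigned percentage as a covariate, 421 genes were higher and 137 lower past 1.5-fold among those that did not overlap. Without it these were 441 and 143. The covariate enters the fitted fold but not the CPM by which overlap was judged, so similar numbers were largely set in advance. The part of total counts was not tested. Two-sided Fisher's exact tests of sex, stress group and library number found no difference between the 2 kinds of library (p = 1, 0.6193 and 1).

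The most plain difference was a set of genes of cortical excitatory neurons that stood higher in every Slc17a7-high library. A gene was counted here when all 8 libraries of one kind lay above all 8 of the other in normalised CPM. Of 21943 genes tested, 968 (4.41%) were higher and 427 (1.95%) lower in the high libraries, 1395 (6.36%) in all. With a fitted fold change of at least 1.5 as well, the numbers were 441 (2.01%) and 143 (0.652%). Since the libraries were chosen by a measured gene, these are descriptions and carry no p-value. The median size was 1.44-fold for the genes that were higher and 1.348-fold for those that were lower.

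Neurod6, a transcription factor of cortical projection neurons (ENSMUSG00000037984, chr6:55677822-55681263, minus strand), had a lowest, median and highest level of 9.80, 22.9 and 35.7 CPM in the high libraries. In the low libraries the levels were 0.251, 0.790 and 5.54 CPM. Its fitted difference was 3.64 ± 0.48 (log2, SE), or 12.5-fold. Tbr1, a T-box factor of early-born cortical neurons (ENSMUSG00000035033, chr2:61802930-61814114, plus strand), spanned 48.4 to 162.3 CPM in the high and 3.13 to 17.1 CPM in the low libraries, with medians of 83.1 and 6.89 CPM. No low library reached the Tbr1 level of any high library, and the log2 difference was 3.38 ± 0.32 (SE).

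The marker genes of the striatum did not separate in this way. Drd1, the receptor of direct-pathway neurons, had a lowest, median and highest level of 128.3, 232.4 and 293.5 CPM in high libraries and 226.7, 279.8 and 328.2 CPM in low libraries. The ranges overlapped, and the log2 difference was -0.25 ± 0.17 (SE). In the 8 libraries between, the Drd1 median was 303.6 CPM, above both. Ppp1r1b spanned 362.4 to 787.7 CPM in high and 651.9 to 961.0 CPM in low libraries, again overlapping, with a log2 difference of -0.30 ± 0.19 (SE). Its medians were 687.6 CPM in high, 897.1 CPM in between and 782.5 CPM in low libraries. Both genes were lowest in CONF3 and MSM6, the libraries with the most Slc17a7, where Drd1 stood at 128.3 and 155.4 CPM.

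**Figure D2:**
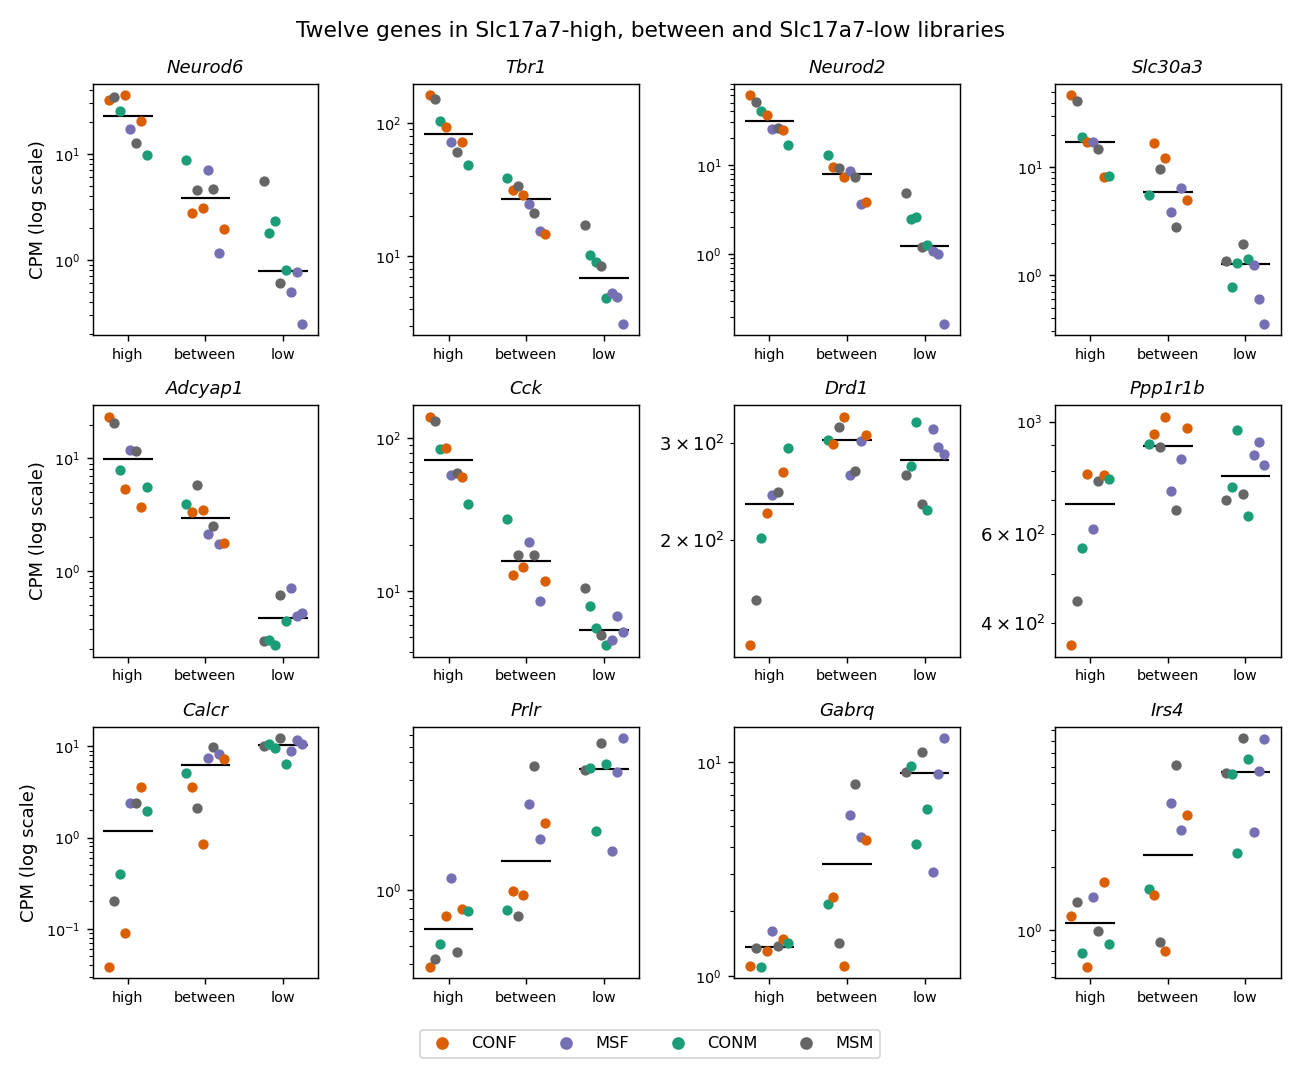
CPM (log scale) of 12 genes in the Slc17a7-high, between and low libraries, with 1 point per library coloured by title prefix and a bar at the median. Neurod6, Tbr1, Neurod2, Slc30a3, Adcyap1 and Cck do not overlap between high and low, Drd1 and Ppp1r1b do, and Calcr, Prlr, Gabrq and Irs4 lie lower in every high library.

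The 12 genes with the largest difference upward, among those that did not overlap, had a mean of at least 100 counts and were no unnamed gene model, were Adcyap1, Neurod2, Slc30a3, Rtn4rl2, Neurod6, Bdnf, Ccn3, Dkkl1, Prdm8, Cck, Tbr1 and Rxfp1. Adcyap1 encodes the neuropeptide PACAP and led with a log2 difference of 4.79 ± 0.46 (SE), from a median of 0.377 CPM in low to 9.82 CPM in high libraries. Neurod2, a basic helix-loop-helix factor of cortical neurons, followed at 4.05 ± 0.40, with 16.8 to 60.6 CPM in high and 0.167 to 4.83 CPM in low libraries. Slc30a3, the zinc transporter of glutamatergic vesicles (ZnT3), differed by 3.99 ± 0.45, and its medians were 17.2 and 1.27 CPM. Cck, the neuropeptide cholecystokinin, differed by 3.43 ± 0.29, with 37.2 to 138.9 CPM in high and 4.42 to 10.5 CPM in low libraries. The neurotrophin Bdnf differed by 3.55 ± 0.36, with medians of 10.6 and 0.853 CPM.

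The promoters of leading genes are shown because Neurod and T-box factors are themselves among these genes. RefSeq promoters (GRCm38.p6, 250 bases before to 50 after the start) matched 10 of the 12 genes, which have 18 promoters. Capitals mark CAGATG, an E-box of the kind bound by NeuroD factors, or AGGTGTGA, a T-box element, searched on both strands, so CATCTG marks the E-box on the other strand.
Neurod2 promoter, chr11:98329596-98329895, minus strand: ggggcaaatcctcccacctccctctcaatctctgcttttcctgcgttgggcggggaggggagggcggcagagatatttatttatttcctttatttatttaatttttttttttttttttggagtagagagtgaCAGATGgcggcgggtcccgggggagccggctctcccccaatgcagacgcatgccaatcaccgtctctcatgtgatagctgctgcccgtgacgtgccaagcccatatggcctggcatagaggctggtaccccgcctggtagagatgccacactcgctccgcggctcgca
Prdm8 promoter, chr5:98180619-98180918, plus strand: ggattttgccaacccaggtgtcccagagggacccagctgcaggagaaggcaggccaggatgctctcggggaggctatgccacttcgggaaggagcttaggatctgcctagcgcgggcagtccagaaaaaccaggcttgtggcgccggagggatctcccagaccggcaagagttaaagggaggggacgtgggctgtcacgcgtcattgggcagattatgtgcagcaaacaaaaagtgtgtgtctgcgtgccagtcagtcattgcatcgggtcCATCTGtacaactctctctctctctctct
Cck promoter, chr9:121495645-121495944, minus strand: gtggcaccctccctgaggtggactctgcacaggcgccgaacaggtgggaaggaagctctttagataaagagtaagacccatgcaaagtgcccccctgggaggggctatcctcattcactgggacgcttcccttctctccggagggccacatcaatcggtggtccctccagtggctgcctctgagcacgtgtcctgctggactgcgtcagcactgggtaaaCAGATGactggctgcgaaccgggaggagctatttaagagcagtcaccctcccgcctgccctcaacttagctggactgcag
Slc30a3 promoter, chr5:31093478-31093777, minus strand: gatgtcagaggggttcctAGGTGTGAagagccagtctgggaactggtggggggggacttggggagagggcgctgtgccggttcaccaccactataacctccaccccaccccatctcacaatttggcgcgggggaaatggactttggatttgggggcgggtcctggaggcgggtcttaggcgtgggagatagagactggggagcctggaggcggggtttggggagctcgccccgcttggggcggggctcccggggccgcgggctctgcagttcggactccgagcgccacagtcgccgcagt
CAGATG was found in 5 of the 18 promoters, of 5 genes (Neurod2, Bdnf, Dkkl1, Prdm8 and Cck), and in 17.2% of all 32851 promoters in the table. AGGTGTGA was found in 1 promoter, that of Slc30a3, and in 1.28% of all promoters. The Neurod6 and Tbr1 promoters held neither. A match is a run of letters, and binding was not measured.

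The 12 genes with the largest difference downward were of another kind. They were Calcr, Prlr, Gabrq, Irs4, Igsf1, Ngb, AW551984, Arhgap36, Agt, Dio3, Gpr101 and Peg10. Calcr, the calcitonin receptor, spanned 0.038 to 3.59 CPM in high and 6.45 to 12.3 CPM in low libraries, a log2 difference of -2.76 ± 0.70 (SE). Prlr, the prolactin receptor, spanned 0.384 to 1.17 CPM in high and 1.64 to 6.73 CPM in low libraries, a log2 difference of -2.72 ± 0.39. Gabrq, the theta subunit of the GABA-A receptor, differed by -2.56 ± 0.32, with medians of 1.36 and 8.91 CPM. Irs4, an insulin receptor substrate, differed by -2.40 ± 0.32, with medians of 1.08 and 5.67 CPM. Peg10, an imprinted gene, was the most abundant of the 12 and fell from a median of 367.1 CPM in low to 90.4 CPM in high libraries. None of these 12 genes is on a marker list of medium spiny neurons used here.

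Genes listed as markers of cortical excitatory neurons were higher in 9 of 12 cases and lower in 0, with a median log2 difference of 3.23, where 4.41% of all genes were higher and the median over all genes was -0.022. Those that overlapped included Vsnl1 (0.75 ± 0.21, SE) and Mal2 (0.61). The summed level of the list ran from 737.2 to 1866 CPM in high and 370.3 to 512.5 CPM in low libraries.

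The lists for single cortical layers were uneven, where 4.41% of all genes were higher. Of 8 genes of upper layers, 0 were higher and 0 lower, and the median was -0.16. Several of them were abundant in the low libraries too, such as Cux1, a homeobox factor, with medians of 165.8 CPM in high and 174.8 CPM in low libraries. Of 9 genes of layers 4 and 5, 2 were higher, Rorb (0.69 ± 0.09, SE) and Deptor (0.53), and the median was 0.28. Of 10 genes of layer 6 and subplate, 4 were higher, namely Cplx3 (2.76 ± 0.45), Ccn2 (2.64 ± 0.48), Nxph4 (2.13) and Moxd1 (0.40), or 3 of 9 without Ccn2. The median of those 10 was 0.49. Of 5 genes of claustrum and endopiriform nucleus, 2 were higher, Nr4a2 (2.99 ± 0.48) and Ntng2 (1.87 ± 0.24). The other 3 overlapped, among them Synpr (-0.44 ± 0.11), and the median was 0.0015. The name cortex-rich thus held for the general excitatory list and not for the list of upper layers, and the groups are called here by Slc17a7.

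**Figure D3:**
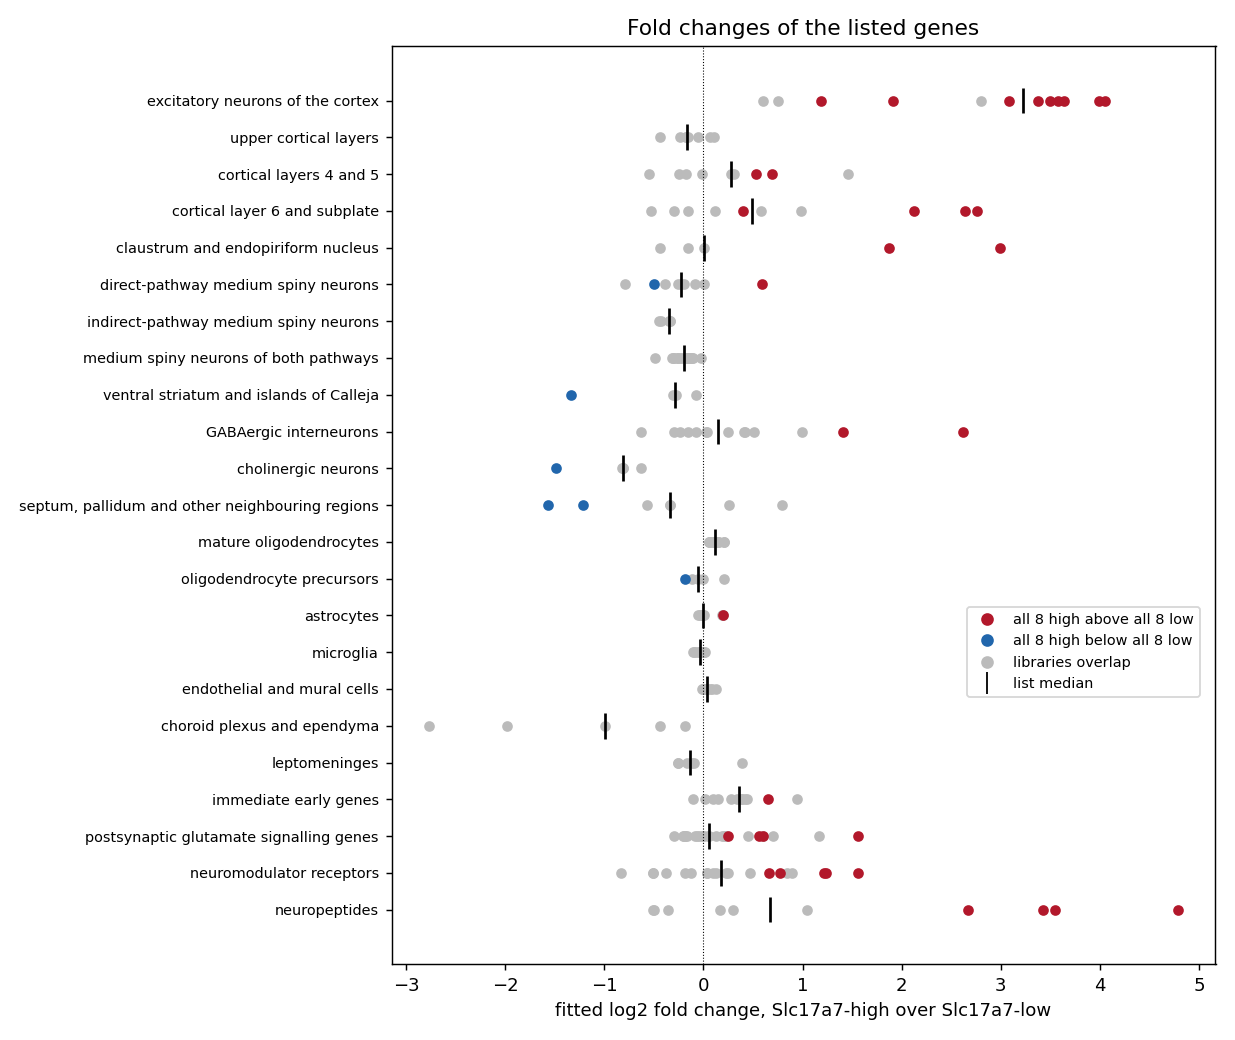
Fitted log2 difference (Slc17a7-high over low) of each gene of 23 lists, with red or blue points where all 8 high libraries lay above or below all 8 low ones, grey points where they overlapped, and a bar at the list median. The excitatory neuron list has its median at 3.23 and the lists of medium spiny neurons, glia and vessels lie near 0.

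Medium spiny neuron lists lay slightly below 0. Over all genes, 4.41% were higher and 1.95% lower, with a median of -0.022. Of 9 direct-pathway genes, Eya1 was higher (0.59 ± 0.09, SE), Ebf1 was lower (-0.50) and the rest overlapped, with a median of -0.23. Of 5 indirect-pathway genes tested and of 16 genes of both pathways, 0 were higher and 0 lower, with medians of -0.34 and -0.20. In both lists 0 genes had a difference above 0. The summed level of the 16 genes was highest in the libraries between. Its medians were 8813 CPM in high, 10856 CPM in between and 9607 CPM in low libraries. Penk, the enkephalin precursor of indirect-pathway neurons, had medians of 684.4 CPM in high and 920.2 CPM in low libraries with overlapping ranges. Its median in the libraries between was 992.9 CPM. In the ventral striatum list, Dlk1 was lower (-1.33 ± 0.34), with 22.4 to 83.0 CPM in high and 95.4 to 171.1 CPM in low libraries.

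A few cholinergic and basal forebrain genes were lower, where 1.95% of all genes were. Of 5 cholinergic genes, 0 had a difference above 0, and the list median was -0.82. Lhx8, a LIM factor of cholinergic neurons, was the 1 of them without overlap (-1.49 ± 0.33, SE). Its levels were 1.36 to 5.08 CPM in high and 6.15 to 14.7 CPM in low libraries. Chat, which makes acetylcholine, had medians of 9.36 and 14.3 CPM and overlapped. Of 7 genes of septum, pallidum and neighbouring regions, Gbx1 (-1.57 ± 0.42) and Nkx2-1 (-1.22 ± 0.26) were lower and 5 overlapped. The list median was -0.34, with 2 of 7 genes above 0 and the highest at 0.79. Gbx1 was highest in CONM6 (12.7 CPM) and MSM4 (9.46 CPM), where the median of the low libraries was 5.14 CPM. CONM6, a low library, stood highest for Zic1 (72.2 CPM, against 36.2 CPM in MSF5, the next highest of the low libraries).

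Among 14 genes of GABAergic interneurons, Vip (2.62 ± 0.30, SE) and Ndnf (1.41 ± 0.25) were higher, where 4.41% of all genes were. The other members overlapped. The list median was 0.14, with 9 of 14 genes above 0 and the lowest at -0.63. Vip, a peptide of cortical interneurons, spanned 4.28 to 13.7 CPM in high and 0.669 to 1.89 CPM in low libraries. Gad1 and Gad2, the GABA-synthesising enzymes, overlapped, with log2 differences of -0.16 and -0.30.

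Glial, vascular and meningeal lists held few genes that separated, where 4.41% of all genes were higher and 1.95% lower. Of 12 oligodendrocyte genes and 9 microglial genes, 0 were higher and 0 lower (medians 0.11 and -0.038), as for 8 vascular, 5 choroid plexus and ependymal and 6 meningeal genes. The choroid plexus and ependymal list had a median of -0.99 on low, overlapping levels, as for the ependymal gene Ccdc153 with medians of 0.123 CPM in high and 0.455 CPM in low libraries. Slc1a2, the astrocytic glutamate transporter, was the 1 of 9 astrocyte genes that was higher (0.19 ± 0.05, SE). Cspg4 was the 1 of 5 oligodendrocyte precursor genes that was lower (-0.18 ± 0.05). The choroid plexus markers Ttr and Folr1 did not pass the filter on low counts.

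Receptors, channels and peptides held further genes that were higher, where 4.41% of all genes were higher and 1.95% lower. Of 10 neuropeptide and secreted factor genes, 4 were higher, Adcyap1, Bdnf, Cck and Cort (2.67). Of 20 neuromodulator receptor genes, 5 were higher, namely the adrenoceptors Adra1d (1.55 ± 0.23, SE), Adra1b (1.23 ± 0.28) and Adra2a (1.21) and the serotonin receptors Htr2a (0.77) and Htr5a (0.66). Of 25 postsynaptic glutamate genes, 4 were higher, Grm2 (1.56 ± 0.21), Grin2a (0.60), Gria3 (0.56) and Camk2a (0.24 ± 0.06). Of 85 potassium channel genes, 19 were higher and 0 lower, with a median of 0.20. Kcnj3, a G-protein-gated inward rectifier, spanned 59.5 to 152.3 CPM in high and 22.1 to 30.9 CPM in low libraries (1.65 ± 0.23), and Kcnh7 followed at 1.61 ± 0.26.

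The next lists are read against 4.41% of all genes higher and 1.95% lower. Of 12 immediate early genes, which rise after neuronal activity, 1 was higher, Ier2 (0.65 ± 0.14, SE), and Fos overlapped (0.95 ± 0.34). Their median was 0.36. Of 96 genes matching symbols of ribosomal proteins, 1 was higher. That pattern also takes in S6 kinases, and 86 genes remained without them, of which 1 was higher. Of 23 genes of the mitochondrial genome, 0 were higher or lower. Of 4938 unnamed gene models, 46 (0.93%) were higher and 45 (0.91%) lower, both below the shares over all genes.

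The 8 libraries between were set apart by the same Slc17a7 ranking but were no part of the high against low comparison. Single genes were tested in them against Slc17a7 on the log2 scale. Because Slc17a7 also ranked the libraries, these tests are no independent support for that comparison. Tbr1 followed Slc17a7 closely, with r = 0.977 (two-sided exact permutation p = 0.0001488, adjusted p = 0.001488 over 10 genes) and rho = 0.976 (exact permutation p = 0.0003968). Without CONF4 and MSF6, the libraries farthest from the median of Slc17a7, r was 0.970. Neurod2 gave r = 0.891 (exact permutation p = 0.002381, adjusted p = 0.0119) and rho = 0.905 (exact permutation p = 0.004563), and r = 0.726 without those libraries.

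The other 8 genes did not pass the correction. Neurod6 had r = 0.589 (exact permutation p = 0.1313, adjusted p = 0.4375) and r = -0.054 without the 2 farthest libraries. Drd1 and Ppp1r1b had r = 0.295 (exact permutation p = 0.4458, adjusted p = 0.5573) and r = 0.346 (exact permutation p = 0.3875, adjusted p = 0.5536). The libraries between number 3 CONF, 1 CONM, 2 MSF and 2 MSM, too few for values within a prefix.

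**Figure D4:**
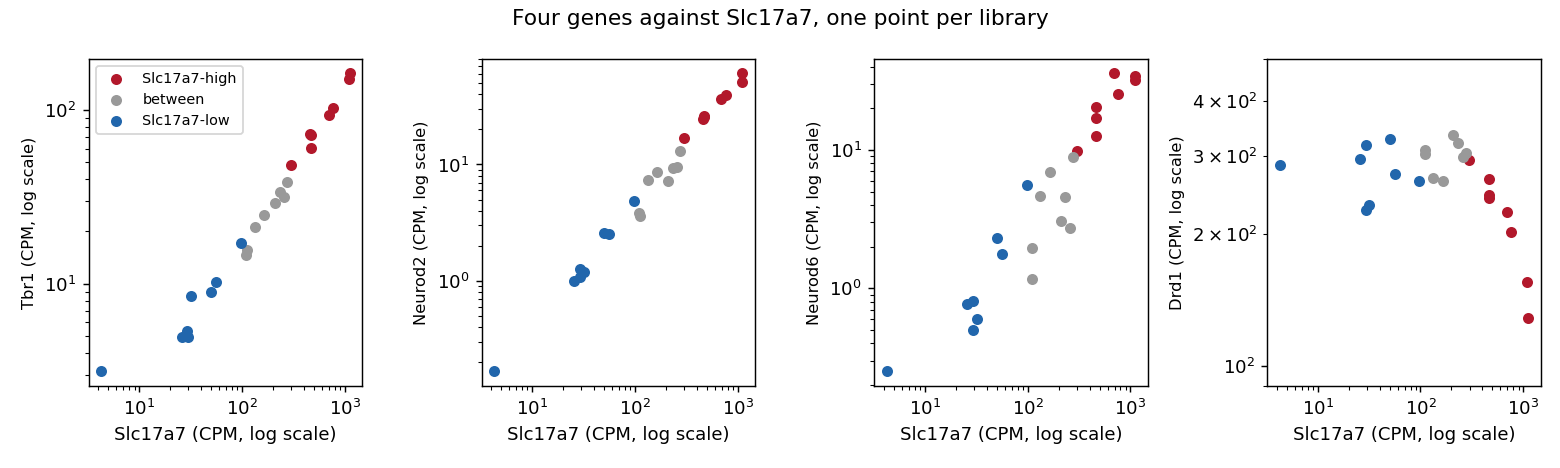
CPM of Tbr1, Neurod2, Neurod6 and Drd1 against Slc17a7 in CPM (both log scales), with 1 point per library coloured as high, between or low. Tbr1 and Neurod2 rise with Slc17a7 within the 8 libraries between (r = 0.977 and 0.891), and Drd1 stays between 128.3 and 335.2 CPM in all 24.

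The comparison was also made within each sex. The fits share no library, but Slc17a7 chose the high and low libraries in both. Genes that follow Slc17a7 then have the same sign in both sexes, so the agreement is a description and no independent support. In males, with 4 high and 5 low libraries spread over Con and MSUS, 1656 of 21347 genes (7.76%) were higher and 1173 (5.49%) lower. Fewer libraries separate more easily, so these shares cannot be compared with those of 8 against 8. Of the 1656 genes higher in males, 1595 (96.3%) had a difference above 0 in females, and of 1170 lower in males that were fitted in both sexes, 1050 (89.7%) were below 0 in females, where 50.1% of all genes were above 0. In females the fit within a title prefix rests on 1 high library, MSF1, against MSF3, MSF4 and MSF5. Neurod6 differed by 3.22 in males and 5.05 in females, and Calcr by -3.01 and -2.10 (log2). Across 21274 genes the female and male differences had r = 0.685, and genes are not independent replicates.

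**Figure D5:**
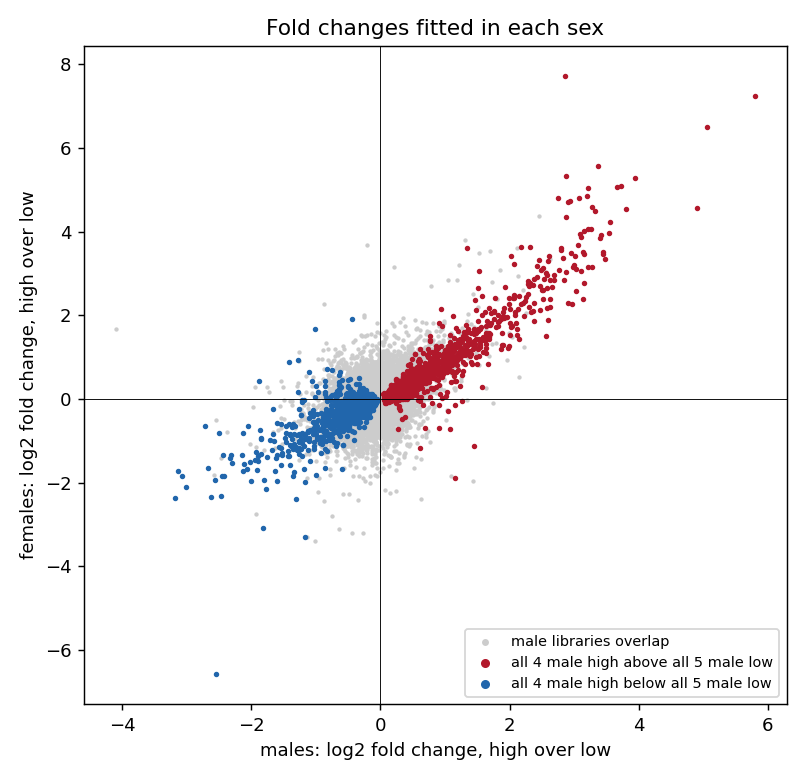
Fitted log2 difference (Slc17a7-high over low) in males on the x axis and females on the y axis, with 1 point per gene, red where all 4 male high libraries lay above all 5 male low ones and blue where they lay below. Most red points (96.3%) lie above 0 on the female axis and most blue points (89.7%) below it.

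Slc17a7 content was also set beside the study's own contrast, of MSUS and Con mice. The quasi-likelihood test of edgeR was used, with Benjamini-Hochberg adjusted p under 0.10, the threshold of the study. In females 5156 of 20570 genes (25.1%) passed, 2698 higher and 2458 lower in MSUS, and 3102 passed without MSF3 and 3358 without MSF2. With the log2 Slc17a7 level of each library as a covariate, 1491 genes (7.25%) passed, 1003 higher and 488 lower. That second number was 0 without MSF1, 254 without MSF2, 334 without CONF4, 745 without CONF5, 971 without MSF3 and 2485 without CONF3. Slc17a7 also chose the libraries described above, and a gene that follows it loses its difference in this model by construction. Of 4234 unnamed gene models tested in females, 1347 were higher and 46 lower in MSUS, and 684 and 9 with the covariate. The percentage of pairs assigned to no gene ran from 31.0 to 34.8 in CONF and from 36.3 to 43.9 in MSF, without overlap. That percentage was not used in the female fits, so its part was not tested. In males 0 of 20690 genes passed by edgeR and 0 by DESeq2, with 191 genes at an unadjusted p under 0.05 by edgeR.

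Of the 12 excitatory neuron genes, 4 passed as lower in MSUS females, where 2458 of 20570 genes did. The median log2 difference of all 12, passing or not, was -1.75. With the Slc17a7 level as a covariate, 0 of the 12 passed. In males 0 of the 12 passed and the median was 0.37. Prlr was higher in MSUS females (1.60 ± 0.49 log2, SE, edgeR adjusted p = 0.0463). Gabrq was 1.64 ± 0.51 higher (edgeR adjusted p = 0.05). With the Slc17a7 level as a covariate, neither Prlr nor Gabrq passed (edgeR adjusted p = 0.407 and 0.490). Tbr1 and Neurod6 did not pass in females (edgeR adjusted p = 0.181 and 0.255). In females, stress and punch content cannot be told apart for genes that follow Slc17a7.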

How the data were processed

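RNA was rRNA-depleted and sequenced from 24 NAc samples. Per the labels and the study's methods, the authors trimmed adapters, aligned to mm10 with STAR 2.6.1b and deposited gene counts on GENCODE M15. The deposited counts are unnormalised, and the sense column was used. Symbols and positions came from GENCODE M21 (52489 of 52636 identifiers matched).

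Counts were TMM-normalised, filtered with filterByExpr (minimum count 10) and fitted with edgeR 4.0.16 (quasi-likelihood, title prefix as covariate). DESeq2 1.42.0 was an alternative. Scripts were tested on simulated data. Exact permutation and Fisher tests used scipy 1.17.1. Named genes were the 4 markers, the 12 largest non-overlapping differences per direction with at least 100 mean counts (symbols of Gm and digits or ending in Rik left out), and the 2 most abundant and 2 most changed genes per list. Other list members were named after their values were seen, because they did not overlap. The members, lists and tests were chosen with earlier results of these data known. Ccn2, first lost from the layer 6 list through an older symbol, was restored after list results had been seen, and both counts are given. The labels do not say whether animals of a group came from separate litters, so p-values measure the spread between these animals. Estrous stage was not used, since the labels also give it to males. The values of 1 listed gene are not reported here.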

Additional observations from a re-analysis of the deposited data

Results flagged for a closer look

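Neurod2 in MSF5 stood apart from the other Slc17a7-low libraries, at 0.167 CPM against 1.00 CPM in the next lowest, a gap of 0.527 of the range of the 8 libraries on the log2 scale. MSF5 is also the library with the least Slc17a7. Of 58 groups of 8 values checked in this way, 1 was found. The 95% critical value used is one that chance passes in about 1 in 20 groups.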

How the results depend on the processing

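The numbers of genes higher and lower in Slc17a7-high libraries moved with the number of libraries compared. A change in that number also changes the gap in Slc17a7 between the groups, and fewer libraries separate more easily. With 6 against 6 the gene numbers were 1542 and 949 (687 and 271 past 1.5-fold), and with 12 against 12 they were 223 and 100 (96 and 53). In males only, an alternative chosen after seeing the data, they were 1656 and 1173, with 331 lower past 1.5-fold. Leaving out each library in turn gave 972 to 1302 higher and 430 to 578 lower genes, and 388 to 566 and 130 to 191 past 1.5-fold. Genes that do not overlap stay so with a library removed, apart from shifts in filter and scaling. The numbers without the fold cut could thus hardly fall.

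Leaving out each library in turn, MSUS females gave 3102 to 5736 genes, with 3102 without MSF3 and 3358 without MSF2, and males 0 to 0. With the Slc17a7 level, females gave 0 to 2485 genes, with 0 without MSF1, 254 without MSF2, 971 without MSF3, 334 without CONF4, 745 without CONF5 and 2485 without CONF3. That number was 2258 by DESeq2, 889 with no filter, 2809 with counts without regard to strand and 0 with the replicate block. The cause was not tested. No named gene without overlap changed sign under the alternatives run. Under alternatives, 20 values of named genes moved by more than 1 SD between libraries and 1982 by less.

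The replicate numbers did not pair samples, since the correlations of deviations between equal numbers ran from -0.431 to 0.474 in females and -0.586 to 0.457 in males. The replicate block gave 518 and 177 genes past 1.5-fold, where it enters the fitted fold but not the judgement of overlap.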
